A study of Neurospora crassa with 12 samples.

Results

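The genes described here are 128 genes of 14 predicted secondary metabolite gene clusters (SMCs) of *Neurospora crassa*, the clusters numbered 2, 3, 4, 6, 7, 10, 11, 12, 14, 15, 16, 17, 18, and 19 in the study. They were taken by cluster number from the study's gene list of 177 SMC genes, and *al-3* of SMC no. 10 (NCU01427) was left out. All 128 genes had a row in the count table of 10592 genes. The rule of choice used no measured value, but the members and the role lists below were chosen with earlier results of these data known.

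Transcripts of germinating conidia, the asexual spores of the fungus, were sequenced in 12 libraries. All came from the wild-type *mat A* strain FGSC2489, with no transgene and no treatment. Conidia were spread on potato dextrose agar (PDA) covered with cellophane and kept under continuous white light. The study gives conflicting growth temperatures for PDA, so none is printed here. The groups differ only in time after inoculation, with 3 replicates each at 15 min (fresh spores), 120 min (first polar growth), 240 min (doubling of the long axis), and 360 min (first hyphal branching). A replicate was the tissue pooled from several plates, and a stage was sampled when most, not all, of the spores had reached it. The comparisons ask which genes differ between a stage and the stage before it.

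An SMC groups neighboring genes whose products make a small molecule that growth does not strictly need. A backbone enzyme builds the carbon skeleton: a polyketide synthase (PKS) joins acyl units, a nonribosomal peptide synthetase (NRPS) joins amino acids, a terpene synthase works on isoprenoid chains, and a dimethylallyl tryptophan synthase (DMAT) adds a prenyl group. Tailoring enzymes then oxidize, reduce, or methylate the skeleton, transporters carry the product, and a transcription factor within the cluster can control its genes. In filamentous fungi, many such clusters are silent in ordinary culture, and others are tied to spores or fruiting bodies.

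Counts per library ran from 51555784 to 84946272. Expression is given as CPM, the counts of a gene per 1000000 counts of its library, with library totals scaled by TMM factors that ran from 0.888 to 1.174. A floor of 3 counts was taken as an approximate limit of a count of 0. It stood for 0.0357 to 0.0567 CPM in 1 library, and it covers counting error only. Fold bounds from this floor take the counts of the other group as they are. The 360 min replicate 3 stood apart from the other replicates of its stage, with a chi-square per gene of 727 and 543 against them and 39.2 between them, and ribosomal RNA genes took 11.7% of its counts against 2.08 and 2.51% in the others. At 15 min ribosomal RNA took 5.53, 10.2, and 1.98%. The replicates of that stage also differed, with a chi-square per gene of 145 (1 and 2), 157 (1 and 3), and 480 (2 and 3). The stage labels were checked with conidial genes. The hydrophobin gene *eas*, which coats conidia, had 9.12, 8.18, and 11.8 CPM at 120 min, against 4155, 4033, and 3988 CPM at 15 min, and *con-6* had 13.4, 14.6, and 20.6 CPM at 120 min, against 400.6, 391.5, and 395 CPM at 15 min. Also *con-8* and *con-10* were below their 15 min range in every later library. The part of this decline in the results below was not tested, and fewer spores with a transcript cannot be told apart from less transcript per spore in such bulk samples.

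Of the 128 genes, 101 passed edgeR's filter on low counts and were tested, 18 had counts but were too low to be tested, and 9 had no count in any library. Between 15 and 120 min, 35 of the 101 rose (34.7%, against 43.1% of all 8118 tested genes) and 47 fell (46.5%, against 39.6). The median log2 fold change was -0.20 for the 101 genes and 0.04 for all tested genes. With upper-quartile scaling, which moved the median of all tested genes to -0.22, 23 rose and 54 fell. By a rule chosen after the values were seen, 7 genes rose at least 4-fold (6.93%, against 11.2 of all tested genes) and 17 fell at least 4-fold (16.8%, against 9.88).

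Between 120 and 240 min, 10 of the 101 genes rose (9.9%, against 12.6 of all tested genes) and 5 fell (4.95%, against 9.73). The number that fell was 10 without the 360 min replicate 3, and 2 without the 120 min replicate 1 or without the 240 min replicate 3. Between 240 and 360 min, 21 rose (20.8%, against 20.7) and 16 fell (15.8%, against 21.1). With the libraries scaled by their totals alone, which moved the median of all tested genes to 0.22 in this comparison, 39 rose and 10 fell. Over the whole course, 38 genes were higher at 360 min than at 15 min (37.6%, against 44.0) and 45 were lower (44.6%, against 40.0). The 3 successive comparisons share the libraries of the stage between them and are not independent of one another. The count also holds only genes that passed the filter, and a gene that passed through 1 stage alone had to differ there, so that these shares describe the tested genes and not all 128. The other 49 SMC genes of the list, of which 38 were tested, had 12 that rose and 22 that fell between 15 and 120 min.

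**Figure D1:**
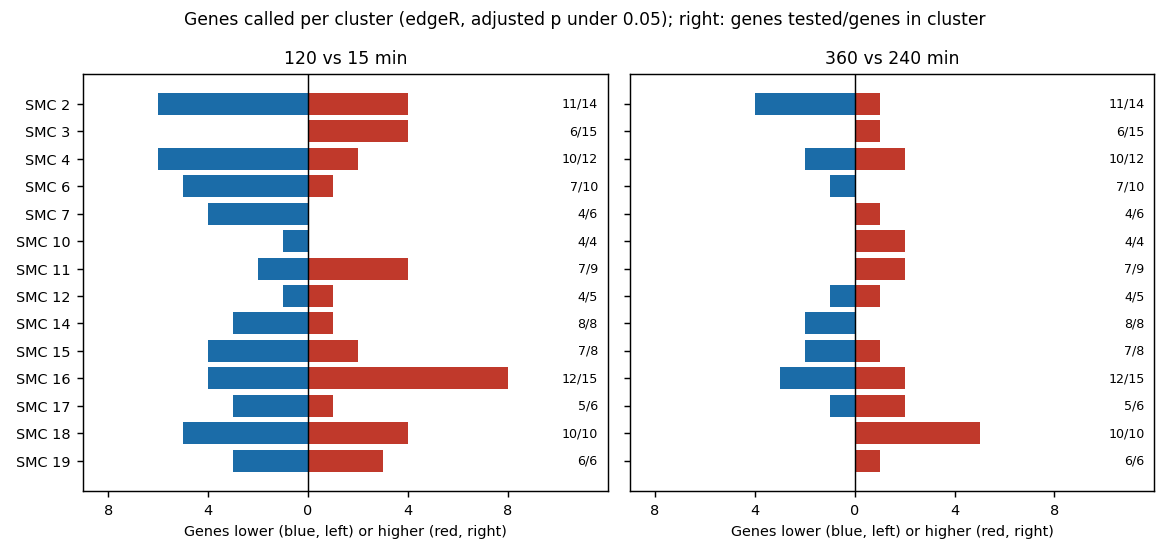
Number of genes of each cluster that rose (right, red) or fell (left, blue) by edgeR at an adjusted p under 0.05, for 120 min against 15 min (left panel) and 360 min against 240 min (right panel), with the genes tested and the genes in the cluster at the right edge. In SMC no. 16, 8 genes rose and 4 fell between 15 and 120 min, and in SMC no. 7, 4 fell and 0 rose. Of all tested genes, 43.1% rose and 39.6% fell in that interval. In SMC no. 18, 5 genes rose and 0 fell between 240 and 360 min, against 20.7% and 21.1% of all tested genes.

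Of the 12 backbone genes, 10 were tested and 2 were not. Of the 10, 8 fell between 15 and 120 min (against 39.6% of all tested genes), 1 rose (against 43.1%), and 1 did not pass the test. The list was drawn up with earlier results of these data known. One of the 8, *pks-5*, would not have passed the filter without the 15 min libraries, where it was highest. The median log2 fold change of the 10 tested genes was -1.15, beside 0.04 for all tested genes, and it stayed at -1.15 with *pks-5* at the bound given below. Per kilobase of gene, averaged over the 4 stages, *erg-9* (87.6 CPM per kb) and *lys-3* (83.5 CPM per kb) stood far above the rest. Next came *pks-1* with 1.84, *nps-2* with 0.979, *pks-4* with 0.846, NCU04531 with 0.802, and *pks-3* with 0.531 CPM per kb. The stage means per kilobase of the last 4 overlapped, from 0.569 to 1.20 for *nps-2*, 0.350 to 1.95 for *pks-4*, 0.493 to 1.39 for NCU04531, and 0.290 to 0.810 for *pks-3*, so that their order is that of the average only. NCU05000 followed with 0.287, NCU12075 with 0.0779, *pks-5* with 0.0176, and *pks-2* with 0.0114 CPM per kb, and *pks-6* had no count. The stage means of NCU05000 ran from 0.0339 to 1.00 and overlapped those of the 4 genes before it. Those of *pks-1* ran from 1.32 to 2.81 and overlapped those of *pks-4* and NCU04531. The stage means of NCU12075, *pks-5*, and *pks-2* overlapped as well, so all these places are by the average only. Lengths are gene spans with introns, and the product of a backbone gene was not measured.

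**Figure D2:**
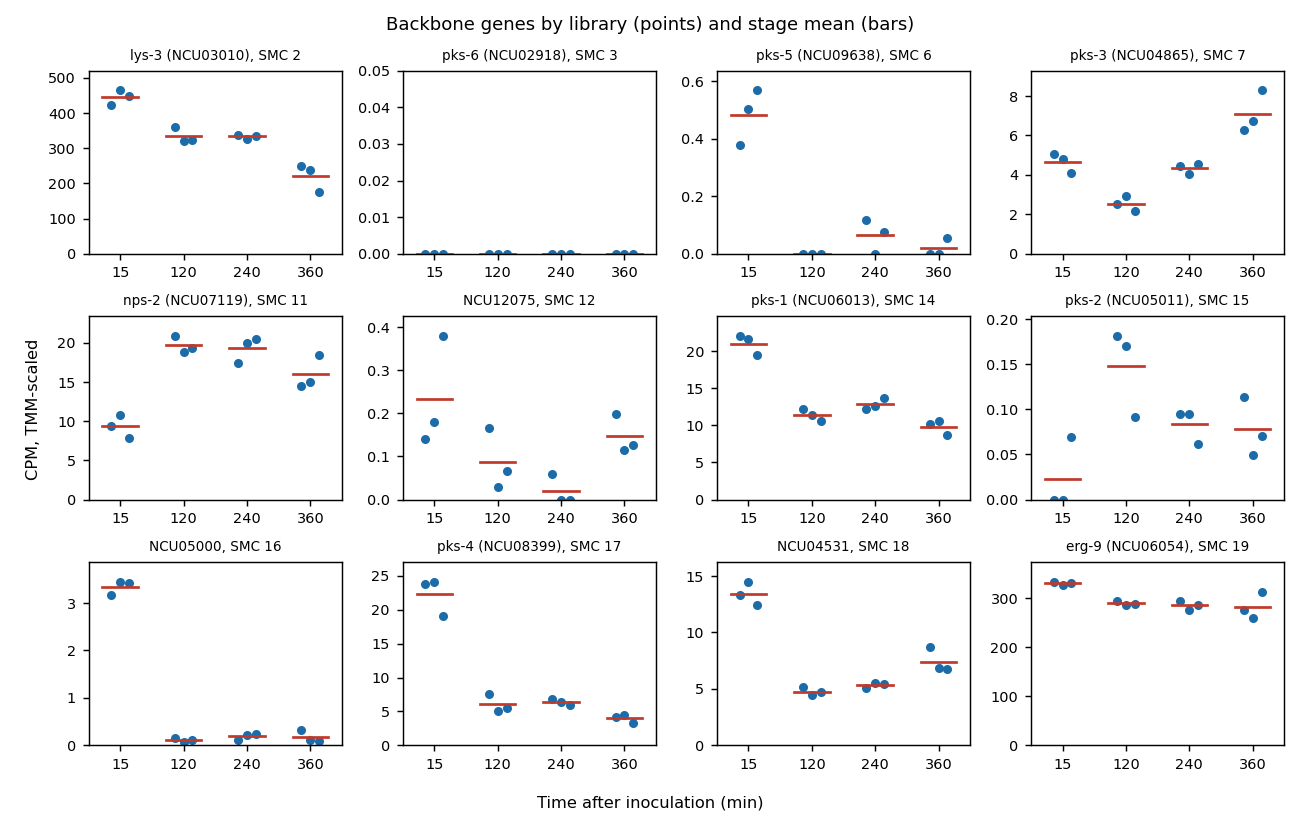
Expression of the 12 backbone genes in CPM (vertical axes, each on its own scale from 0) by time after inoculation in min (horizontal axes), with 1 point per library and a bar at the mean of 3 replicates. The highest stage is 15 min for *lys-3*, *pks-5*, *pks-1*, NCU05000, *pks-4*, NCU04531, and *erg-9*, 120 min for *nps-2*, and 360 min for *pks-3*, and *pks-6* is at 0 in all 12 libraries.

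The polyketide synthase gene *pks-4* of SMC no. 17 had 23.8, 24.2, and 19 CPM at 15 min, 7.51, 5.12, and 5.53 CPM at 120 min, 6.78, 6.33, and 5.98 CPM at 240 min, and 4.21, 4.51, and 3.30 CPM at 360 min. The 15 min libraries were all above the others, and the 360 min libraries were all below. The gene fell between 15 and 120 min (log2 fold change -1.88 ± 0.15 SE, edgeR adjusted p = 6.8e-08) and again between 240 and 360 min (-0.67 ± 0.16, edgeR adjusted p = 0.0044). Its counterpart *pks-1* of SMC no. 14 had 22.1, 21.6, and 19.4 CPM at 15 min, 12.2, 11.4, and 10.6 CPM at 120 min, 12.2, 12.6, and 13.7 CPM at 240 min, and 10.2, 10.6, and 8.74 CPM at 360 min. It fell in the same intervals, with log2 fold changes of -0.88 ± 0.09 SE (edgeR adjusted p = 4.9e-07) and -0.38 ± 0.09 SE (edgeR adjusted p = 0.0039). The fall of *pks-1* between 240 and 360 min was not called when library totals alone set the scale (-0.18).

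The polyketide synthase gene *pks-3* of SMC no. 7 had 5.08, 4.79, and 4.12 CPM at 15 min, 2.52, 2.95, and 2.17 CPM at 120 min, 4.44, 4.02, and 4.55 CPM at 240 min, and 6.29, 6.75, and 8.29 CPM at 360 min. All libraries of 120 min were below, and all libraries of 360 min above, those of every other stage. Among the tested backbone genes it was the one that fell between 15 and 120 min and then rose in both later intervals. The log2 fold changes were -0.87 ± 0.14 SE (edgeR adjusted p = 8.4e-05), 0.77 ± 0.14 SE (edgeR adjusted p = 0.0028), and 0.71 ± 0.14 SE (edgeR adjusted p = 0.0015). At 360 min *pks-3* was 1.52-fold higher than at 15 min (log2 fold change 0.61 ± 0.14 SE, edgeR adjusted p = 0.0012).

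The polyketide synthase gene *pks-5* of SMC no. 6 was detected mainly in fresh spores. It had 0.377, 0.505, and 0.569 CPM at 15 min and 0 counts in the 3 libraries of 120 min, followed by 0.119, 0, and 0.0766 CPM at 240 min and 0, 0, and 0.0564 CPM at 360 min. With 0 counts at 120 min, against 88 counts in all at 15 min, the gene was at least 34.2-fold lower at 120 min, by the floor of 3 counts over the group (edgeR adjusted p = 0.00024). It would not have passed the filter on low counts without the 15 min libraries. Being tested thus already required a higher level there, and this p-value is no separate support for the fall. The whole annotated span of *pks-5*, 8089 bases, lies within that of NCU09637, so its level is uncertain. The remaining polyketide synthases were at or near 0. *pks-2* of SMC no. 15 had 68 counts in all 12 libraries, with at most 0.181 CPM in 1 library, and did not pass the filter. *pks-6* of SMC no. 3 had none, and 3 counts over the 12 libraries, the limit taken for that 0, would be 0.00375 CPM.

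The NRPS gene *nps-2* of SMC no. 11 was the backbone gene that rose between 15 and 120 min. It had 9.37, 10.8, and 7.92 CPM at 15 min, 20.9, 18.8, and 19.3 CPM at 120 min, 17.5, 20, and 20.5 CPM at 240 min, and 14.6, 15.1, and 18.5 CPM at 360 min. Every later library was above all those of 15 min, and the later stages overlapped their neighbors. Its log2 fold change between 15 and 120 min was 1.07 ± 0.12 SE (edgeR adjusted p = 1.6e-06). Its span overlaps that of NCU07120 by 2458 bases, and that gene rose too, as given below.

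NCU04531 of SMC no. 18, which the study lists as an NRPS gene and whose annotated product is a hypothetical protein, had 13.4, 14.5, and 12.4 CPM at 15 min, 5.12, 4.44, and 4.71 CPM at 120 min, 5.07, 5.50, and 5.47 CPM at 240 min, and 8.68, 6.82, and 6.75 CPM at 360 min. It was highest in the 3 libraries of fresh spores, and the 360 min libraries lay between those and the libraries of the other stages. The gene fell by 2.82-fold between 15 and 120 min (log2 fold change -1.50 ± 0.11 SE, edgeR adjusted p = 2.4e-08) and rose between 240 and 360 min (0.47 ± 0.11 SE, edgeR adjusted p = 0.0042). NCU05000 of SMC no. 16, listed as NRPS-like and likewise annotated, had between 0.0709 and 0.326 CPM in the 9 later libraries, against 3.17, 3.45, and 3.42 CPM at 15 min. Its fall between 15 and 120 min was 29.2-fold (log2 fold change -4.87 ± 0.40 SE, edgeR adjusted p = 8.2e-08), and none of the later intervals passed the test. NCU12075 of SMC no. 12, listed as a DMAT gene and likewise annotated, had 0.141, 0.179, and 0.380 CPM at 15 min, 0.166, 0.0284, and 0.0652 CPM at 120 min, 0.0595, 0, and 0 CPM at 240 min, and 0.198, 0.116, and 0.127 CPM at 360 min. Its 95 counts passed no test in any interval, and its log2 fold change between 240 and 360 min was 2.53 ± 0.96 SE (edgeR adjusted p = 0.051), called with DESeq2, with upper-quartile factors, and with library totals alone.

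The remaining backbone genes belong to primary metabolism. *lys-3* of SMC no. 2 encodes the L-aminoadipate-semialdehyde dehydrogenase of lysine synthesis, an enzyme of NRPS-like structure. It had 423, 465, and 448 CPM at 15 min, 361, 321, and 325 CPM at 120 min, 339, 326, and 336 CPM at 240 min, and 250, 237, and 175 CPM at 360 min. The 360 min libraries were all below the others, with replicate 3 the lowest. The fall between 240 and 360 min had a log2 fold change of -0.60 ± 0.10 SE (edgeR adjusted p = 0.00069), and that between 15 and 120 min -0.41 ± 0.10 SE (edgeR adjusted p = 0.0025). *erg-9* of SMC no. 19 encodes squalene synthetase, which starts the branch to sterols. It had 296, 286, and 288 CPM at 120 min, against 334, 328, and 332 CPM at 15 min, a small fall (log2 fold change -0.19 ± 0.06 SE, edgeR adjusted p = 0.01), and this was not called with library totals alone. The 360 min libraries of *erg-9*, with 276, 260, and 314 CPM, were lower than those of 15 min (log2 fold change -0.23 ± 0.06 SE, edgeR adjusted p = 0.0037), but with library totals alone this difference turned to 0.07.

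Of the 16 genes given a tailoring role, 11 were tested and 4 had no count in any library. Between 15 and 120 min, 3 rose and 6 fell (against 43.1% and 39.6% of all tested genes). This list too was drawn up with earlier results known. Among those that fell, NCU10572 and *cyp450-33* would not have passed the filter without the 15 min libraries, where they were highest. The median log2 fold change of the 11 was -1.0, beside 0.04 for all tested genes. The largest rise of all 101 tested genes belonged to *ci-1* (NCU05001) of SMC no. 16, annotated as an ent-kaurene oxidase, which is a cytochrome P450 of diterpene synthesis in plants and gibberellin-making fungi. It had 0.189, 0.195, and 0.431 CPM at 15 min, 17.3, 17.5, and 14.6 CPM at 120 min, 12.5, 10.8, and 10.8 CPM at 240 min, and 6.24, 5.91, and 5.39 CPM at 360 min. No stages overlapped, the 120 min libraries were the highest, and each later stage was below the one before it. The rise was 60.9-fold (log2 fold change 5.93 ± 0.21 SE, edgeR adjusted p = 9.1e-12), and the fall between 240 and 360 min had a log2 fold change of -0.96 ± 0.15 SE (edgeR adjusted p = 0.00031). The fall between 120 and 240 min (-0.53 ± 0.14 SE, edgeR adjusted p = 0.018) was not called without the 120 min replicate 1 or 2, or without the 240 min replicate 2 or 3, with adjusted p between 0.061 and 0.079.

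The tailoring genes of SMC no. 6 were expressed most in fresh spores. The short chain oxidoreductase gene NCU10572 had at most 0.184 CPM in any of the 9 later libraries, with 0 counts in 3 of them, against 5.31, 6.19, and 5.02 CPM at 15 min. Between 15 and 120 min it fell by 70.9-fold (log2 fold change -6.15 ± 0.69 SE, edgeR adjusted p = 2e-06). The P450 gene *cyp450-33* had 0 counts at 120 min, against 0.189, 0.244, and 0.224 CPM at 15 min, at least 15.5-fold lower by the floor over the group (edgeR adjusted p = 0.0014), and 1 of the 6 libraries after 120 min had counts. NCU10572 and *cyp450-33* would not have passed the filter without the 15 min libraries, so their p-values are no separate support for these falls. NCU09637, annotated as a sterigmatocystin 8-O-methyltransferase, was expressed at a higher level throughout, with 46.1, 47.9, and 40.5 CPM at 15 min, 21.8, 16.9, and 15.6 CPM at 120 min, 16.5, 18.5, and 18.5 CPM at 240 min, and 13.6, 11.2, and 10.1 CPM at 360 min. It fell between 15 and 120 min (log2 fold change -1.31 ± 0.13 SE, edgeR adjusted p = 4.6e-07) and between 240 and 360 min (-0.61 ± 0.13 SE, edgeR adjusted p = 0.0025). The span of NCU09637 holds the whole span of *pks-5*, 8089 bases, so the level and falls of NCU09637 are uncertain too.

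**Figure D3:**
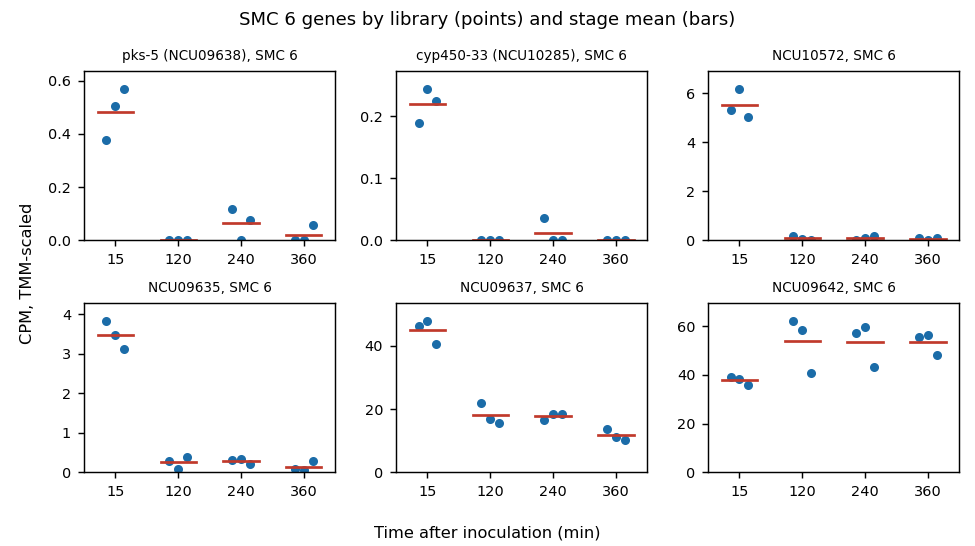
Expression of 6 genes of SMC no. 6 in CPM (vertical axes, each from 0) by time after inoculation in min (horizontal axes), with 1 point per library and a bar at the mean of 3 replicates. *pks-5*, *cyp450-33*, NCU10572, and NCU09635 have their 3 highest libraries at 15 min and lie near 0 afterward. NCU09637 falls less, and the sulfate transporter gene NCU09642 is above its 15 min range in every later library. The span of NCU09637 holds that of *pks-5*, so their values may not be separate.

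Other tailoring genes fell by smaller steps or in part recovered. The alcohol dehydrogenase gene *adh-8* of SMC no. 4 had 398, 364, and 373 CPM at 120 min, against 763, 748, and 762 CPM at 15 min (log2 fold change -1.0 ± 0.08 SE, edgeR adjusted p = 4.8e-08), and 298, 251, and 226 CPM at 360 min, against 382, 387, and 398 CPM at 240 min (-0.59 ± 0.08 SE, edgeR adjusted p = 0.00013). Per kilobase it was the most strongly expressed tailoring gene, and none of these groups overlapped. The laccase gene *lacc* of SMC no. 18, whose product class oxidizes phenols, had 0.287, 0.142, and 0.326 CPM at 120 min, against 1.51, 1.14, and 1.52 CPM at 15 min (log2 fold change -2.45 ± 0.51 SE, edgeR adjusted p = 0.00057). The UbiE-type methyltransferase gene NCU04695 of SMC no. 12 had 0.692, 0.488, and 0.638 CPM at 15 min, 0.0453, 0.0709, and 0.143 CPM at 120 min, 0.131, 0.434, and 0.368 CPM at 240 min, and 1.02, 0.677, and 1.04 CPM at 360 min. It was lowest at 120 min, where it had fallen (log2 fold change -2.75 ± 0.50 SE, edgeR adjusted p = 0.00018), and it rose between 240 and 360 min (1.6 ± 0.42 SE, edgeR adjusted p = 0.0088). Its rise between 120 and 240 min (1.75 ± 0.52 SE, edgeR adjusted p = 0.031) was not called without the 120 min replicate 1 or 2, or without the 240 min replicate 2 or 3.

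The other tailoring genes that rose were NCU07117 and NCU10683. NCU07117 of SMC no. 11 is annotated as an ornithine-N5-oxygenase, the enzyme class that opens hydroxamate siderophore synthesis in *Aspergillus*, and had 64.5, 74.0, and 67.9 CPM at 120 min, against 46.4, 47.0, and 57.0 CPM at 15 min (log2 fold change 0.46 ± 0.13 SE, edgeR adjusted p = 0.0043). With upper-quartile scaling this log2 fold change was 0.19 and not called. NCU10683 of SMC no. 19, given the product name NRS/ER, had 2.48, 2.60, and 3.60 CPM at 120 min, against 0.849, 1.45, and 1.36 CPM at 15 min (log2 fold change 1.25 ± 0.21 SE, edgeR adjusted p = 0.00011). Both genes had no overlap between these stages, and neither passed the test in a later interval. The difference of NCU07117 between 120 and 240 min (-0.33, edgeR adjusted p = 0.078) was called in the fit of those 2 stages only, with DESeq2, and without the 360 min replicate 2 or 3, and that between 240 and 360 min without the 360 min replicate 3 (-0.27, edgeR adjusted p = 0.04). The oxidoreductase gene NCU06009 of SMC no. 14 stayed between 0.718 and 1.45 CPM in all libraries, and the short-chain dehydrogenase gene *gpl-5* of SMC no. 3 stayed at or below 0.230 CPM, and neither passed the test in any interval.

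The tailoring genes of SMC no. 3 were nearly silent along with *pks-6*. Among them, *mkr-6* and *mkr-2* are named possible polyketide synthases in the study's text. The cupin genes *mkr-6* (NCU02919) and NCU02921, the short-chain dehydrogenase gene NCU02920, and the epoxide hydrolase gene *eph-1* had 0 counts in all 12 libraries, as did *pks-6*. These 5 genes lie side by side except for *gpl-5* and *mkr-2*, which stand before *eph-1* in the gene order and had 93 and 22 counts in all. The outer genes of SMC no. 3 were detected. NCU16468 had 2.69, 2.92, and 2.65 CPM at 120 min, against 1.64, 1.64, and 1.95 CPM at 15 min (log2 fold change 0.66 ± 0.16 SE, edgeR adjusted p = 0.0019). NCU02915 had 5.77, 5.30, and 5.70 CPM at 120 min, against 3.47, 4.20, and 4.68 CPM at 15 min (log2 fold change 0.44 ± 0.11 SE, edgeR adjusted p = 0.0028), which was 0.18 and not called with upper-quartile scaling, and its call between 240 and 360 min (0.30 ± 0.11 SE, edgeR adjusted p = 0.046) was lost in 9 of the 12 fits that left out 1 library. The other genes without a count in any library were NCU08405 and NCU08406 of SMC no. 4, NCU04860 of SMC no. 7, and *het-15* of SMC no. 12.

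Among the 6 transporter genes, 3 were tested, and they did not move together. The multidrug resistance gene *abc-6* of SMC no. 14 had 0.0906, 0, and 0.209 CPM at 120 min, against 2.26, 1.86, and 1.6 CPM at 15 min, an 18.4-fold fall (log2 fold change -4.20 ± 0.71 SE, edgeR adjusted p = 0.0001), and it stayed at or below 0.155 CPM afterward. NCU09642 of SMC no. 6, annotated as a high affinity sulfate transporter, had 62.2, 58.4, and 40.8 CPM at 120 min, against 39.1, 38.2, and 36.0 CPM at 15 min (log2 fold change 0.51 ± 0.15 SE, edgeR adjusted p = 0.0058), and with upper-quartile scaling the value was 0.24 and not called. The span of NCU09642 overlaps that of NCU10572, which fell, by 272 bases. The MFS transporter gene NCU08407 of SMC no. 4 had 0.212, 0.149, and 0.353 CPM at 360 min, against 0.0595, 0.0944, and 0.107 CPM at 240 min (log2 fold change 1.47 ± 0.51 SE, edgeR adjusted p = 0.035). This rise was not called by DESeq2, nor without any 1 of the 240 min replicates or the 360 min replicate 1 or 3. Without the 360 min libraries NCU08407 would not have passed the filter, so its p-value is no separate support for the rise. The untested transporters were the toxin efflux gene *mfs-13* of SMC no. 6 with 6 counts, the sugar transporter gene *sut-29* with 16 counts, and the metal transporter gene *trm-61* with 55 counts, both of SMC no. 16.

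The single regulator was *ada-6* (NCU04866) of SMC no. 7, a transcription factor named for the altered development of its mutant. It had 4.07, 3.74, and 3.66 CPM at 15 min, 0.906, 1.81, and 0.952 CPM at 120 min, 1.71, 2.32, and 1.75 CPM at 240 min, and 2.68, 2.49, and 2.02 CPM at 360 min. All later libraries were below those of 15 min, and neighboring later stages overlapped. It fell between 15 and 120 min (log2 fold change -1.64 ± 0.24 SE, edgeR adjusted p = 2.8e-05). The difference between 120 and 240 min (0.65 ± 0.24 SE, edgeR adjusted p = 0.077) was called without the 120 min replicate 2, where it was 1.04. It was also called in the fit with a replicate block. At 360 min the gene was lower than at 15 min (-0.68 ± 0.23 SE, edgeR adjusted p = 0.016), a call lost without the 360 min replicate 3 (-0.57) and with library totals alone (-0.38).

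Beyond these roles, SMC no. 7 (chromosome IV, 508446 to 548863 in assembly NC12) also held 2 tested genes of no annotated function, and both fell with *pks-3* and *ada-6* between 15 and 120 min. NCU04862 had 1.15, 1.28, and 0.952 CPM at 120 min, against 7.67, 8.68, and 7.85 CPM at 15 min (log2 fold change -2.84 ± 0.15 SE, edgeR adjusted p = 7.2e-10). NCU04861 had 2.75, 2.42, and 1.93 CPM at 120 min, against 12.8, 12.6, and 11.5 CPM at 15 min (log2 fold change -2.38, edgeR adjusted p = 5e-08). These 2 genes remained at 1.25 to 2.42 and 0.952 to 1.97 CPM after 15 min, apart from the 2.75 CPM of NCU04861 in the 120 min replicate 1, and neither passed the test in a later interval, while *pks-3* did. In SMC no. 6 (chromosome IV, 1667 to 36590), NCU09635 also fell, to 0.287, 0.0851, and 0.378 CPM at 120 min, against 3.83, 3.48, and 3.12 CPM at 15 min (log2 fold change -3.78, edgeR adjusted p = 6.6e-06).

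**Figure D4:**
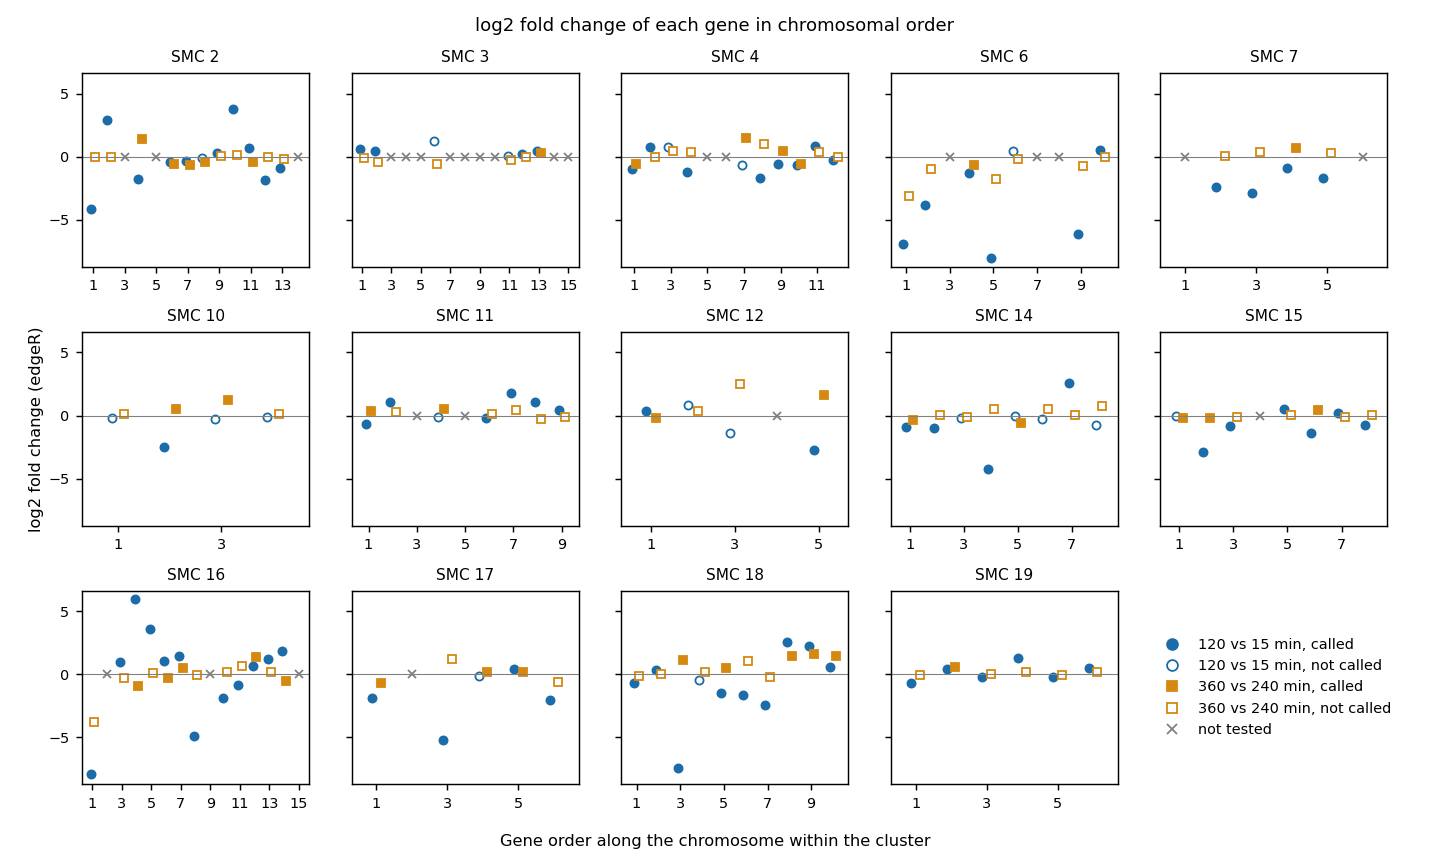
The log2 fold change of each gene (vertical axes) in its order along the chromosome within each of the 14 clusters (horizontal axes), for 120 min against 15 min (circles) and 360 min against 240 min (squares), filled where edgeR called the difference, with crosses at 0 for genes that were not tested. Fitted values of *pks-5*, *cyp450-33*, and NCU05005, which had 0 counts at 120 min, depend on the prior count. Rising and falling genes stand side by side within SMC no. 2, no. 16, and no. 18, and all tested genes of SMC no. 7 lie below 0 for 120 min against 15 min.

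SMC no. 16 (chromosome VI, 4115923 to 4157329) had large changes in both directions within its 15 genes. Near *ci-1*, NCU12150, annotated as a ywbE protein, had 5.42, 5, and 5.22 CPM at 120 min, against 0.252, 0.407, and 0.621 CPM at 15 min (log2 fold change 3.62, edgeR adjusted p = 1.4e-09). It differed from *ci-1* in that it stayed between 4.93 and 5.52 CPM at 240 and 360 min. The next genes along the chromosome, NCU12151 and NCU12152, rose with log2 fold changes of 1.09 (edgeR adjusted p = 6.6e-09) and 1.46 (edgeR adjusted p = 4.5e-09), and after them came NCU05000, which fell. NCU05005, which encodes a protein with an HHE domain, had 0 counts at 120 min, against 0.252, 0.651, and 0.449 CPM at 15 min, at least 31.9-fold lower by the floor over the group (edgeR adjusted p = 0.0006). Without the 15 min libraries NCU05005 would not have passed the filter, so this p-value is no separate support for its fall. Toward the other end, the leucine aminopeptidase gene *lap-2* had 11.7, 10.3, and 12.3 CPM at 120 min, against 3.21, 2.96, and 3.23 CPM at 15 min (log2 fold change 1.87, edgeR adjusted p = 5.9e-09), and 8.78, 8.19, and 6.33 CPM at 360 min, against 11.5, 10.8, and 10.8 CPM at 240 min (-0.51, edgeR adjusted p = 0.0035). NCU04996 was one of 2 genes of the cluster that rose between 240 and 360 min, with 2.56, 2.71, and 2.60 CPM at 360 min, against 1.02, 1.04, and 1.04 CPM at 240 min (log2 fold change 1.34 ± 0.24 SE, edgeR adjusted p = 0.0008).

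SMC no. 18 (chromosome VII, 1529478 to 1574995) held the largest fall among genes with counts in every stage. The gene *app* (NCU04533), which encodes a protein with a DUF1881 domain, had 39.6, 37.0, and 37.5 CPM at 15 min, 0.317, 0.213, and 0.143 CPM at 120 min, 0.0952, 0.359, and 0.215 CPM at 240 min, and 0.581, 0.413, and 0.339 CPM at 360 min. The 15 min libraries exceeded all others by far, and the later stages overlapped. The fall was 170-fold (log2 fold change -7.41 ± 0.27 SE, edgeR adjusted p = 1.4e-11). Its rise between 240 and 360 min (1.10 ± 0.36 SE, edgeR adjusted p = 0.028) was not called without the 240 min replicate 1 or 3, or without the 360 min replicate 1.

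At the other end of the same cluster, neighboring genes of no annotated function rose through all intervals. NCU12022 had 1.35, 1.37, and 1.36 CPM at 15 min, 2.95, 6.83, and 14.7 CPM at 120 min, 19.3, 21.8, and 28.4 CPM at 240 min, and 65.3, 64.6, and 55.7 CPM at 360 min. NCU12021 had 2.36, 2.07, and 2.69 CPM at 15 min, 3.79, 9.60, and 19.5 CPM at 120 min, 22.2, 27.5, and 25.3 CPM at 240 min, and 81.2, 77.0, and 75.6 CPM at 360 min. Neither gene had an overlap between stages, and the 120 min replicates differed widely in both, with replicate 1 the lowest and replicate 3 the highest. At 360 min NCU12022 was 45.4-fold (log2 fold change 5.50 ± 0.46 SE, edgeR adjusted p = 8.6e-08) and NCU12021 32.9-fold (5.04 ± 0.44 SE, edgeR adjusted p = 1.3e-07) above 15 min. Between 240 and 360 min their log2 fold changes were 1.42 ± 0.36 SE (edgeR adjusted p = 0.0068) and 1.64 ± 0.36 SE (edgeR adjusted p = 0.0029). The smaller rise of NCU12021 between 120 and 240 min (1.18 ± 0.37 SE, edgeR adjusted p = 0.036) was not called in 5 of the 12 fits that left out 1 library, and that of NCU12022 (1.50 ± 0.37 SE, edgeR adjusted p = 0.012) not without the 120 min replicate 2 or the 240 min replicate 3. Their spans share 406 bases, so that their values may not be separate. NCU06170, the next gene outward, had 22.4, 21.9, and 31.3 CPM at 360 min, against 7.90, 10.5, and 9.17 CPM at 240 min (log2 fold change 1.46, edgeR adjusted p = 4.4e-05).

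**Figure D5:**
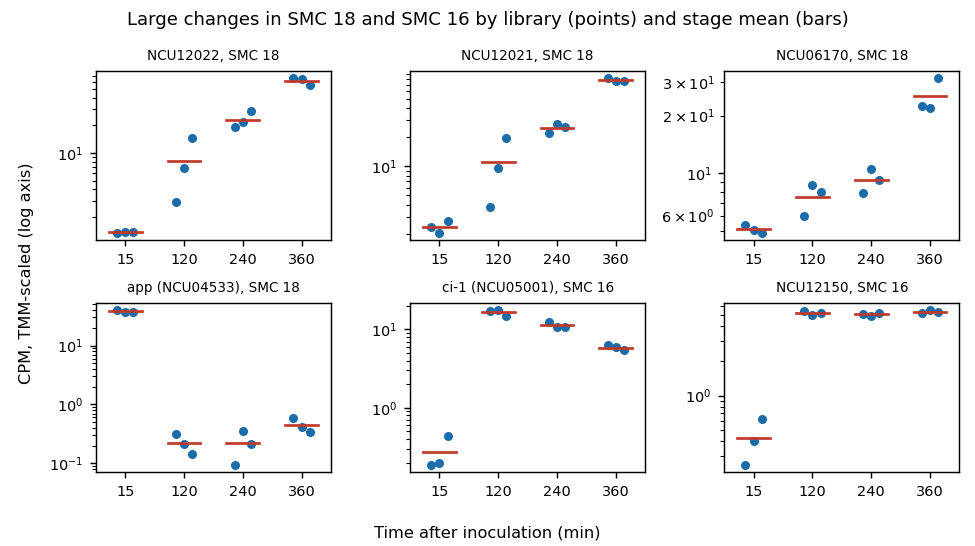
Expression of 6 genes with large changes in SMC no. 18 and SMC no. 16 in CPM (vertical axes, logarithmic, each on its own scale) by time after inoculation in min (horizontal axes), with 1 point per library and a bar at the mean of 3 replicates. NCU12022, NCU12021, and NCU06170 have their 3 highest libraries at 360 min, *app* at 15 min, and *ci-1* at 120 min, and NCU12150 stays between 4.93 and 5.52 CPM from 120 min on.

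SMC no. 2 (chromosome I, 8432912 to 8474307) held many genes of primary metabolism beside *lys-3*. The gene listed as *erg-6* in the study and *erg-4* in RefSeq (NCU03006) encodes sterol 24-C-methyltransferase, an enzyme of ergosterol synthesis. It had 222, 219, and 243 CPM at 120 min, against 17, 15.2, and 16.6 CPM at 15 min, a 14-fold rise (log2 fold change 3.81 ± 0.07 SE, edgeR adjusted p = 2.9e-14), and it stayed between 215 and 257 CPM afterward, whereas *erg-9* was 1.14-fold lower at 120 min. NCU03015 rose (log2 fold change 2.96, edgeR adjusted p = 6.6e-09), and its neighbor NCU03016 had 0.106, 0.128, and 0.104 CPM at 120 min, against 2.11, 1.94, and 1.95 CPM at 15 min (log2 fold change -4.13 ± 0.47 SE, edgeR adjusted p = 2e-06). Without the 15 min libraries NCU03016 would not have passed the filter, so its p-value is no separate support for its fall. For *acw-10*, which encodes an anchored cell wall protein, the libraries had 17.8, 15.7, and 16.2 CPM at 15 min, 2.76, 4.61, and 7.62 CPM at 120 min, 9.66, 12.4, and 12.7 CPM at 240 min, and 33.1, 25.2, and 34.5 CPM at 360 min. It was lowest at 120 min and highest at 360 min with no overlap, and its log2 fold changes were -1.72 ± 0.26 SE (edgeR adjusted p = 3.8e-05), 1.20 ± 0.26 SE (edgeR adjusted p = 0.0062), and 1.42 ± 0.25 SE (edgeR adjusted p = 0.00074). The gene *djc-2* for zuotin, a ribosome-associated chaperone, had 710, 637, and 496 CPM at 360 min, against 970, 965, and 966 CPM at 240 min (log2 fold change -0.65 ± 0.10 SE, edgeR adjusted p = 0.00022).

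In SMC no. 4 (chromosome II, 3937327 to 3969762), *trp-3*, which encodes tryptophan synthetase, fell beside *adh-8*, with 342, 305, and 314 CPM at 120 min, against 494, 504, and 525 CPM at 15 min (log2 fold change -0.66, edgeR adjusted p = 2.8e-05). NCU16588, which shares 1491 bases with *trp-3*, had 2.54, 1.72, and 1.89 CPM at 120 min, against 1.07, 1.24, and 1.03 CPM at 15 min (log2 fold change 0.88, edgeR adjusted p = 0.00094). The largest fall in the cluster was that of NCU16587, with 0.136, 0.113, and 0.0913 CPM at 120 min, against 0.487, 0.309, and 0.276 CPM at 15 min (log2 fold change -1.65, edgeR adjusted p = 0.0026). These genes had no overlap between the stages compared. Without the 15 min libraries NCU16587 would not have passed the filter, so its p-value is no separate support for its fall. The study types the cluster as NRPS-like and lists NCU08404 to NCU08407 for it from a genome database. None of them was given a backbone role here, so the backbone genes above hold none of this cluster. NCU08404, of no annotated function, had 0.317, 0.340, and 0.0913 CPM at 120 min, against 0.629, 0.456, and 0.604 CPM at 15 min (log2 fold change -1.18 ± 0.44 SE, edgeR adjusted p = 0.024).

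SMC no. 10 (chromosome V, 4020359 to 4030186) was represented by the 4 genes other than *al-3*, a terpene synthesis gene not described here. NCU01424, which encodes a protein with a DUF636 domain, had 89.7, 87.0, and 82.4 CPM at 15 min, 14.5, 15.4, and 14.9 CPM at 120 min, 23.3, 29.5, and 27.3 CPM at 240 min, and 40.4, 33.0, and 39.2 CPM at 360 min. It fell between 15 and 120 min (log2 fold change -2.53 ± 0.09 SE, edgeR adjusted p = 1.4e-11) and rose in both later intervals (0.83 ± 0.09 SE, edgeR adjusted p = 7e-05, and 0.49 ± 0.09 SE, edgeR adjusted p = 0.0008), to a level still below fresh spores. Next to it, NCU01425 had 1.90, 2.33, and 3.15 CPM at 360 min, against 0.785, 1.26, and 1.06 CPM at 240 min (log2 fold change 1.26 ± 0.25 SE, edgeR adjusted p = 0.0016). NCU01423 and NCU01426 passed no test.

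In SMC no. 11 (chromosome VI, 57463 to 104258), 4 of the 7 tested genes rose between 15 and 120 min and 2 fell, against 43.1% and 39.6% of all tested genes. Besides *nps-2* and NCU07117, the risers were NCU07120, a DUF1264 domain gene with 5.15, 5.35, and 3.97 CPM at 120 min, against 1.18, 1.19, and 1.79 CPM at 15 min (log2 fold change 1.80, edgeR adjusted p = 3.4e-06), and NCU07125 (log2 fold change 1.07, edgeR adjusted p = 7.4e-07). The spans of *nps-2* and NCU07120 share 2458 bases, so that their values may not be separate. NCU07126 fell, with 6.66, 5.70, and 5.06 CPM at 120 min, against 9.34, 9.60, and 9.01 CPM at 15 min (log2 fold change -0.68, edgeR adjusted p = 6.9e-05), and 2995 bases of its span are shared with NCU07127, which lies outside the cluster. NCU07123 rose in the later intervals, with 20.3, 23.0, and 21.9 CPM at 360 min, against 16.1, 15.2, and 14.5 CPM at 240 min (log2 fold change 0.51 ± 0.07 SE, edgeR adjusted p = 0.00014). In SMC no. 12 (chromosome VI, 398027 to 416596), NCU04692 had 46.1, 46.2, and 48.2 CPM at 120 min, against 33.8, 35.9, and 37.1 CPM at 15 min (log2 fold change 0.39, edgeR adjusted p = 1.5e-05), and it fell between 240 and 360 min (-0.22, edgeR adjusted p = 0.0053), which was not called with library totals alone (-0.02).

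Of the 8 tested genes of SMC no. 14 (chromosome VI, 3080312 to 3107588), 1 rose between 15 and 120 min, against 43.1% of all tested genes. NCU06008, of no annotated function, had 35.5, 32.1, and 32.4 CPM at 120 min, against 5.58, 5.49, and 5.62 CPM at 15 min (log2 fold change 2.58 ± 0.06 SE, edgeR adjusted p = 1e-13), and it stayed between 32.1 and 34.9 CPM afterward. It lies in the same cluster as *pks-1* and *abc-6*, which fell. The mutanase gene *gh71-2* did not pass the test there (log2 fold change -0.00, edgeR adjusted p = 0.98) but fell between 240 and 360 min, with 7.90, 5.60, and 5.80 CPM at 360 min, against 9.68, 9.06, and 10.2 CPM at 240 min (log2 fold change -0.59 ± 0.13 SE, edgeR adjusted p = 0.0031).

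SMC no. 15 (chromosome VI, 4070783 to 4106597) lies next to SMC no. 16. NCU05013, of no annotated function, had the highest level per kilobase of its cluster in fresh spores, with 129, 119, and 132 CPM at 120 min, against 954, 966, and 907 CPM at 15 min, a 7.43-fold fall (log2 fold change -2.89 ± 0.07 SE, edgeR adjusted p = 3.7e-13). Its later calls were small, with log2 fold changes of -0.23 (edgeR adjusted p = 0.03) and -0.21 (edgeR adjusted p = 0.026), and were lost without any 1 of the 240 min replicates. The gene *nuo21.3c*, which encodes a subunit of mitochondrial complex I, had 5.54, 7.56, and 6.65 CPM at 120 min, against 17.2, 17.7, and 16.8 CPM at 15 min (log2 fold change -1.39, edgeR adjusted p = 8.2e-08), and rose between 240 and 360 min (0.47 ± 0.11 SE, edgeR adjusted p = 0.0059). NCU05010 rose between 15 and 120 min (log2 fold change 0.50, edgeR adjusted p = 0.00028). The thiamine gene *thi-7* was called lower at 360 min than at 240 min (-0.22, edgeR adjusted p = 0.034), but not with upper-quartile factors, with library totals alone, without the 360 min replicate 3, or without any 1 of the 240 min replicates.

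In SMC no. 17 (chromosome VII, 1080398 to 1110529), NCU08397, the gene nearest to *pks-4* among those tested, had 0, 0.199, and 0.222 CPM at 120 min, against 5.34, 5.13, and 5.50 CPM at 15 min, a 36.6-fold fall (log2 fold change -5.19 ± 0.78 SE, edgeR adjusted p = 3.5e-05). At 360 min it had 0.255, 1.25, and 0.0987 CPM, with replicate 2 above the others. The splicing factor gene *dim-1* had 43.9, 47.4, and 49.3 CPM at 120 min, against 36.7, 34.4, and 36.4 CPM at 15 min (log2 fold change 0.39, edgeR adjusted p = 4.2e-05), and with upper-quartile scaling this was 0.12 and not called. The calls of *dim-1* and NCU08396 between 240 and 360 min (log2 fold changes 0.16 and 0.18, edgeR adjusted p = 0.048 and 0.037) were lost in 9 and 8 of the 12 fits that left out 1 library. In SMC no. 19 (chromosome VII, 1953633 to 1974000), the alkaline protease gene *spr-5* rose in every interval and had 20, 18.2, and 21.2 CPM at 360 min, against 7.45, 6.90, and 7.95 CPM at 15 min (log2 fold change 1.41 ± 0.09 SE, edgeR adjusted p = 5.1e-09), although its step between 15 and 120 min was not called with upper-quartile scaling. NCU06056 fell between 15 and 120 min (log2 fold change -0.73, edgeR adjusted p = 6e-08).

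Of the 47 adjacent pairs within a cluster in which both genes were called between 15 and 120 min, 27 (57.4%) moved the same way, beside 2678 of 4693 pairs (57.1%) over all genes, a comparison given without a test. By level, 42 of the 128 genes (32.8%) had a mean below 0.5 CPM, as did 31.3% of all genes, 31 (24.2%) lay between 0.5 and 5 CPM, against 13.4% of all genes, and 15 (11.7%) had 50 CPM or more, against 23.6% of all genes. The 18 untested genes with counts had between 3 and 97 counts in all, and at most 0.362 CPM in 1 library, in NCU09636 at 15 min. In all, 27 of the 128 genes overlap another gene model in RefSeq.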

How the data were processed

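The study sequenced oligo(dT)-selected, strand-marked, paired-end libraries. The authors trimmed reads, aligned them to OR74A v12 with HISAT2 2.1.0, dropped alignments of low quality, and deposited whole-number counts per gene, which StringTie 1.3.3b and its script derive from coverage and a read length and which are therefore estimates. A pair may be counted as 2 reads, so limits from 3 counts may be too low. A deposited table of the authors' own relative expression estimates was not used.

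Stages were compared with edgeR 4.0.16 (R 4.3.3): TMM factors, filterByExpr, 1 mean per stage over 12 libraries, quasi-likelihood tests, and Benjamini-Hochberg adjustment over 8118 genes at 0.05. SE is the log2 fold change divided by the root of F. The steps were tested on simulated data with the same spread for every gene and few changed genes. That setting differs from these data, so the test does not vouch for the calls here. Replicates were labelled as biological, no libraries agreed within sampling noise (lowest chi-square per gene 15.4), and libraries were not paired by replicate number. Roles came from products or symbols in the study's gene list, or, for NCU04531, NCU05000, and NCU12075, from its cluster table. The study's text names *mkr-6* (NCU02919) and *mkr-2* (NCU02923) possible polyketide synthases, but both were kept here with the tailoring genes. Spans came from RefSeq assembly NC12 (10590 of 10592 IDs matched). Named are all genes with backbone, tailoring, transporter, or regulator roles, the largest called rise and fall of each cluster at 120 against 15 min and 360 against 240 min, and genes without counts. The genes *trp-3*, *lap-2*, NCU04861, NCU09635, NCU03015, NCU06170, NCU08404, NCU12150, NCU12151, NCU12152, NCU07125, NCU09636, NCU01423, and NCU01426 were added after their values were seen. Members and lists were chosen with earlier results of these data known. The alternatives were other scaling factors, no low count filter, DESeq2 1.42.0, a test against a 2-fold change, a replicate block, fits of 2 stages only, and leaving out each library.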

Additional observations from a re-analysis of the deposited data

How the results depend on the processing

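Of 8055 single-gene values under the alternatives, 7592 kept direction and call, 355 lost a call, 97 gained one, and 11 reversed. With all 12 fits that leave out 1 library, calls were kept by 74 of 82 genes for 120 against 15 min, 9 of 15 for 240 against 120 min, 28 of 37 for 360 against 240 min, and 75 of 83 for 360 against 15 min. The test against a 2-fold change left 10 higher and 25 lower at 120 against 15 min, 15 and 23 at 360 against 15 min, and 0 and 0 in both other comparisons, where 3 and 7 genes were higher and 0 lower at an unadjusted p under 0.05 in this test, and DESeq2 without a fold threshold called 10 higher and 6 lower at 240 against 120 min and 18 and 16 at 360 against 240 min. For 120 against 15 min, upper-quartile factors gave 23 higher. For 240 against 120 min, the count of lower genes was 10 in the fit of those 2 stages only and 2 to 10 when 1 library was left out. For 360 against 240 min, library totals alone gave 39 higher and 10 lower, and 85.3% of the calls over all genes were then higher, against 49.6% with TMM (72.0% against 56.4% for 240 against 120 min). The median log2 fold change of all tested genes moved to -0.22 at 120 against 15 min and -0.20 at 360 against 15 min with upper-quartile factors, and to 0.22 at 360 against 240 min and 0.35 at 360 against 15 min with totals alone.

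Reversed values with upper-quartile factors were *gh61-3* (-0.00) and *acp-1* (-0.07) at 120 against 15 min, and NCU07121 (-0.00) and NCU04692 (-0.21) at 360 against 15 min. With totals alone they were *mrp-30* (0.20), NCU06052 (0.18), and *erg-9* (0.19) at 360 against 240 min, and NCU06012 (0.05), *thi-7* (0.12), NCU06052 (0.04), and *erg-9* (0.07) at 360 against 15 min. The cause was not tested beyond the shift of the scale. Of 18 pairs of libraries with the same replicate number, 3 had correlated deviations over 0.1 (range -0.082 to 0.166). These 3 were the pairs among replicate 1 of 120, 240, and 360 min (0.165, 0.114, and 0.166). With different numbers, the 120 min replicate 2 and the 360 min replicate 3 had 0.146. Whether the replicate 1 libraries were handled together was not tested. The replicate block gave 35 higher and 46 lower at 120 against 15 min, with 7 calls lost and 2 gained among 404 values. The gained were *ada-6* at 240 against 120 min (0.67, edgeR adjusted p = 0.048) and NCU06009 at 360 against 240 min (0.53, edgeR adjusted p = 0.046). Without the low count filter, 36 were higher and 50 lower at 120 against 15 min, among them 5 of the 18 genes that had counts but did not pass the filter, *pks-2* higher (2.64) and *dnr-17* (-6.06), *nit-14* (-5.79), NCU09636 (-6.85), and *vad-15* (-5.82) lower.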
